A study of Mus musculus with 4 samples.

Results

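The genes described here carry the interleukin 2 (IL2) signal from the T cell surface to the nucleus and then switch it off: the receptor chain genes Il2rb and Il2rg, the kinase genes Jak1 and Jak3, the transcription factor genes Stat5a and Stat5b, and the feedback inhibitor genes Socs1, Socs2, Socs3 and Cish. They were taken as all probe sets that the array's annotation assigns to exactly 1 of these 10 genes, which gave 21 of the array's 45101 probe sets. A probe set is a group of short probes that together measure 1 transcript. Of the 10 genes 9 had such a probe set, among 18193 genes in all that had one, and Il2rg had none in the annotation used here and so has no value below.

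RNA came from naive mouse CD4+ T cells (helper T lymphocytes), isolated from spleen with peripheral and mesenteric lymph nodes and kept in culture for 7 days. Of the samples, 2 received progesterone, a steroid hormone, at 2000 ng/ml on top of TGFb1 at 1 ng/ml, and 2 received TGFb1 at 1 ng/ml only. All 4 cultures also held concanavalin A at 2.5 ug/ml, a lectin used to activate lymphocytes, in RPMI medium with 10% serum, and no culture without TGFb1 or without the lectin is among the samples analysed here. The labels give neither strain, sex nor age, and leave unsaid whether replicates were separate cultures or animals. The p-values below therefore reflect no more than how far these particular samples differ, which could be technical variation.

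As background, IL2 binds a receptor whose beta chain (Il2rb) and common gamma chain (Il2rg) hold the kinases JAK1 and JAK3. The kinases phosphorylate STAT5A and STAT5B, which pair up, enter the nucleus and bind DNA at palindromes of the form TTCNNNGAA. In T cells, IL2 and STAT5 drive growth after activation and support Foxp3 expression in regulatory T cells. Among the genes that cytokines switch on through STAT proteins are CISH and the SOCS proteins, which bind receptors or kinases and dampen the same signal.

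In the progesterone arrays 3 of these genes rose: Stat5a on both of its probe sets, Socs3 on all 3 and Cish on its single one. The rises were between 0.54 and 1.11 on the log2 scale, or 1.46-fold to 2.15-fold. The receptor chain gene Il2rb, the kinase genes Jak1 and Jak3, Stat5b, Socs1 and Socs2 did not pass the test on any probe set. Of the 21 probe sets 20 passed a filter on low signal. By limma, 6 of those 20 rose and 0 fell, with a Benjamini-Hochberg adjusted p under 0.05 over all 22518 probe sets kept. An unadjusted p under 0.05 was found for 10 of the 20 and for 4799 of all 22518. Over all probe sets kept, 5.99% were called, 2.36% as rises and 3.62% as falls, against 30.0% of these 20. By gene, 3 of 9 were called, beside 7.3% of 10501 genes by their brightest kept probe set. Probe sets of the same gene are not independent, and these genes were chosen with earlier results of these data known. Rises made up 39.5% of all calls, and 17.8% with the deposited signals. In a bulk sample, fewer cells that express a gene and less RNA per cell cannot be told apart. Every difference given here is progesterone plus TGFb1 minus TGFb1 alone, on the scale log2(signal + 16) after quantile normalisation, with the standard error (SE) of the limma fit, its 95% interval and n = 2 per group.

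Several measured differences between the arrays bear on every result that follows. Deposited signals had a trimmed mean of 138.5 and 108.3 in the progesterone arrays and 155.4 and 146.2 in the TGFb1 arrays, so the second progesterone array was the dimmest. The marker signals and sums that follow are quantile normalised unless called deposited. The summed signal of 7 T cell genes was 26382 and 26957 in the progesterone arrays and 26130 and 27661 in the TGFb1 arrays. Thy1 and Cd3d were the brightest, with Cd3d at 6648 to 6775 in the progesterone arrays and 6370 to 6608 in the TGFb1 arrays. The deposited Cd3d signals were 6681 and 5447 in the progesterone arrays and 7356 and 6872 in the TGFb1 arrays. As deposited, each of the 7 except Cd28, which overlapped, was lower in both progesterone arrays. Limma called none of the 7, of which 4 differences were positive and 3 negative. An unadjusted p under 0.05 was found for 2, Cd4 (-0.34, adjusted p = 0.0972) and Cd5 (-0.21, adjusted p = 0.169), both lower in the progesterone arrays. The summed signal of 7 myeloid marker genes was 922.0 and 1058 in the progesterone arrays and 395.4 and 218.2 in the TGFb1 arrays. It was led by Lyz2 and then Csf1r, and 1 of the 6 kept, Lyz2, rose. Lyz2 made up most of the progesterone sums, at 684.6 and 770.7, against 173.0 and 54.1 in the TGFb1 arrays. Of the 6 kept, 5 differences were positive, with Csf1r at 0.17, and 1 was negative, Itgam (-0.81, adjusted p = 0.273). For 4 platelet and erythroid genes the sum was 842.5 and 1036 in the progesterone arrays and 182.9 and 169.8 in the TGFb1 arrays, led by Pf4 and then Itga2b, and all 3 kept rose. For 5 mast cell and basophil genes it was 1226 and 1557 in the progesterone arrays and 1498 and 1010 in the TGFb1 arrays, led by Cpa3, and 1 of 5, Kit, rose. Cpa3 differed by -0.33 while Kit (1.09), Ms4a2 (0.96), Fcer1a (0.49) and Mcpt8 (0.13) were all positive, with a list median of 0.49, and Ms4a2 was called as a rise on another probe set. The sums of 2 CD8 genes, Cd8b1 and Cd8a (102.2 to 154.1 in the progesterone arrays, 142.8 to 169.7 in the TGFb1 arrays), and of 4 B cell genes, led by Cd79b and Cd79a (91.1 to 169.5 in the progesterone arrays, 78.2 to 109.7 in the TGFb1 arrays), overlapped between the groups. The sum of 3 natural killer cell genes was 278.0 to 286.7 in the progesterone arrays and 425.9 to 457.4 in the TGFb1 arrays. Of these 3 lists only Klrd1, a natural killer gene, was called, as a fall. None of these marker genes was listed at 0, and Cd14, Ms4a1, Pax5, Ncr1, Klra8 and Hba-a1 lay under the filter. Xist, the RNA of the inactive X chromosome, had normalised signals of 1432 and 1107 in the progesterone arrays against 10.6 and 10.8 in the TGFb1 arrays, and Y-linked Eif2s3y had 3.32 and 0.50 in the progesterone arrays against 595.9 and 670.7 in the TGFb1 arrays. The hormone and the sex chromosome content of the cells therefore cannot be told apart in this design, and the part of other cell types in the results below was not tested.

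**Figure D1:**
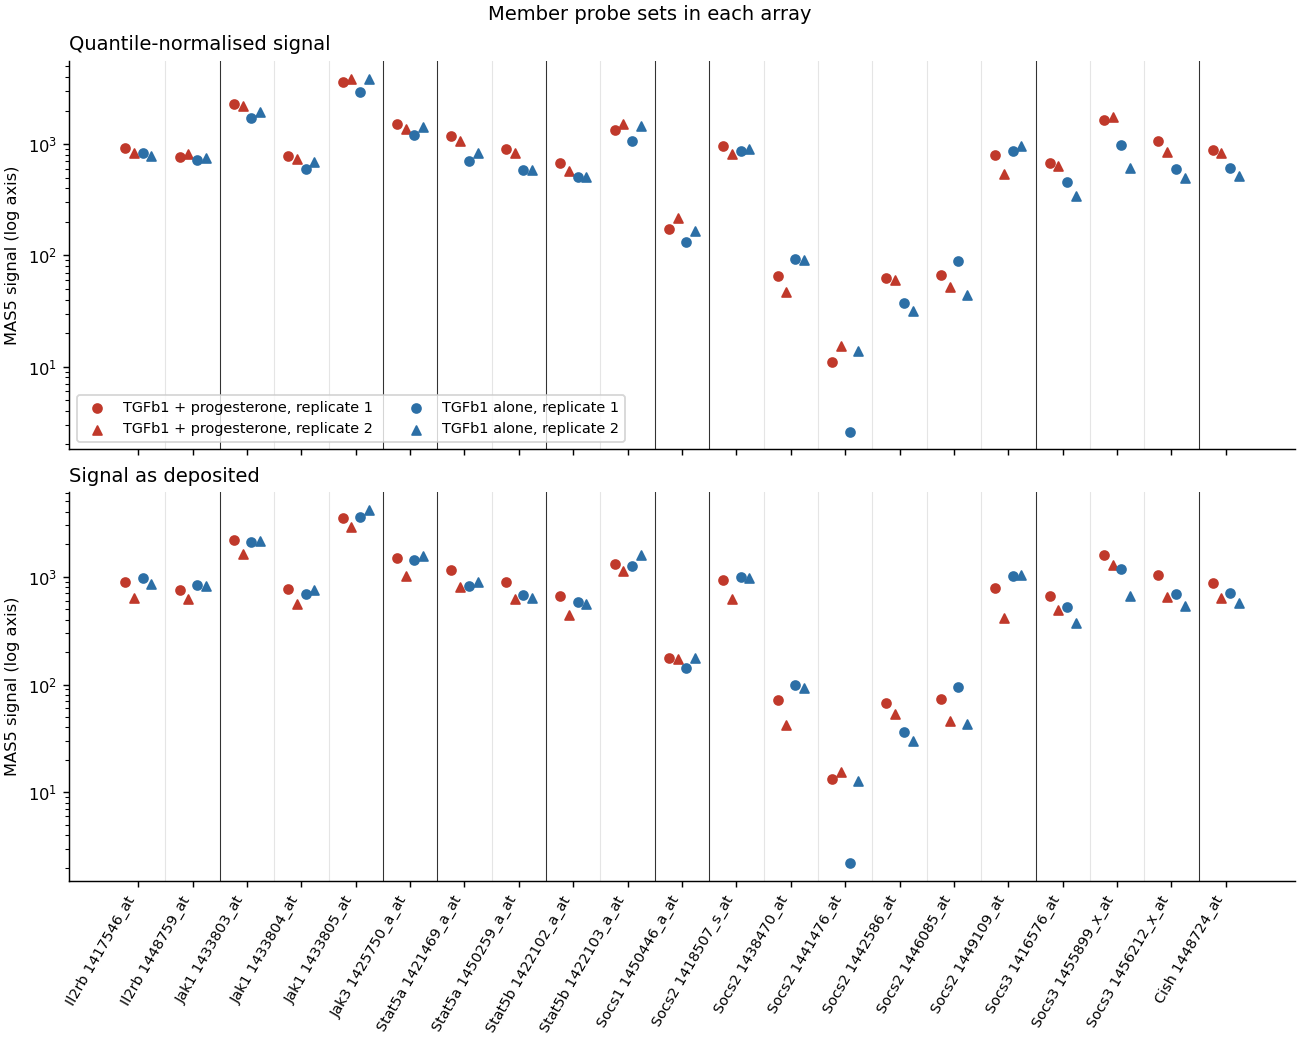
MAS5 signal on a log axis for the 21 probe sets, with 2 progesterone arrays in red to the left and 2 TGFb1 arrays in blue to the right for each. The upper panel shows quantile-normalised signal, where both Stat5a, all 3 Socs3 and the Cish probe sets have both red points above both blue ones, and the lower panel shows the deposited signal, where only 1 of these 6 keeps that separation.

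The receptor chain showed no called change. Il2rb encodes the beta chain, which IL2 and IL15 receptors share. Its probe set 1417546_at read 917.7 and 826.2 in the progesterone arrays and 831.3 and 789.4 in the TGFb1 arrays, and 1448759_at read 766.6 and 821.3 in the progesterone arrays and 724.0 and 750.3 in the TGFb1 arrays. On the first the groups overlapped, and on the second they did not, by a margin smaller than the gap between the TGFb1 arrays. The differences were 0.10 ± 0.11 (95% interval -0.15 to 0.35, adjusted p = 0.626) and 0.10 ± 0.10 (-0.14 to 0.35, adjusted p = 0.609). The sign depended on scaling, since both values were negative with the deposited signals.

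Jak1 and Jak3 encode the kinases that sit on the beta chain and the gamma chain. The Jak1 probe set 1433803_at read 2280 and 2183 in the progesterone arrays and 1714 and 1942 in the TGFb1 arrays, without overlap. Its difference was 0.29 ± 0.09 (interval 0.08 to 0.50), and it did not pass (adjusted p = 0.124). On 1433804_at the signals were 783.5 and 737.7 in the progesterone arrays and 601.2 and 693.4 in the TGFb1 arrays, a difference of 0.23 ± 0.12 (adjusted p = 0.303). On 1433805_at they were 3619 and 3865 in the progesterone arrays and 2916 and 3823 in the TGFb1 arrays, and here the groups overlapped, with a difference of 0.16 ± 0.12 (adjusted p = 0.486). The 3 Jak1 probe sets thus lay close together, at 0.16 to 0.29, none called. Without TGFb1 replicate 2, though, 1433803_at was at 0.38 and passed (adjusted p = 0.0399), as did 1433805_at at 0.36 (adjusted p = 0.0332). Jak3 on 1425750_a_at read 1520 and 1364 in the progesterone arrays and 1203 and 1437 in the TGFb1 arrays. These overlapped, and the difference was 0.13 ± 0.11 (interval -0.14 to 0.40, adjusted p = 0.558). All 4 kinase probe sets had a negative difference with the deposited signals.

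Stat5a rose. STAT5A and its close relative STAT5B are products of neighbouring genes on mouse chromosome 11 and act as pairs on shared DNA sites. On 1450259_a_at Stat5a read 900.9 and 823.9 in the progesterone arrays and 583.1 and 588.4 in the TGFb1 arrays. Both progesterone arrays stood well above a tight pair of TGFb1 arrays, and the difference was 0.54 ± 0.11 (interval 0.30 to 0.79, adjusted p = 0.0260), a 1.46-fold rise. On 1421469_a_at it read 1185 and 1063 in the progesterone arrays and 707.1 and 825.9 in the TGFb1 arrays, a difference of 0.55 ± 0.12 (0.27 to 0.82, adjusted p = 0.0365). Both probe sets gave nearly the same rise. Without TGFb1 replicate 1 the second was at 0.42 and no longer passed (adjusted p = 0.0778).

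Stat5b was not called. Its probe set 1422102_a_at read 669.3 and 568.3 in the progesterone arrays and 503.9 and 510.5 in the TGFb1 arrays, without overlap, a difference of 0.27 ± 0.12 (interval -0.01 to 0.56, adjusted p = 0.251). On 1422103_a_at the signals were 1340 and 1513 in the progesterone arrays and 1060 and 1465 in the TGFb1 arrays. That pair overlapped, and the difference was 0.19 ± 0.15 (-0.16 to 0.54, adjusted p = 0.517). The first Stat5b interval includes the values measured for Stat5a, and a difference in response between both genes was not tested.

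Socs3 had the largest rise among the probe sets of these genes. SOCS3 binds cytokine receptors and JAK kinases, and is best known as the brake that STAT3-activating cytokines such as IL6 induce. On 1455899_x_at Socs3 read 1638 and 1749 in the progesterone arrays and 987.4 and 612.6 in the TGFb1 arrays. The TGFb1 arrays lay far apart here, yet both were below both progesterone arrays, and the difference was 1.11 ± 0.19 (interval 0.65 to 1.56, adjusted p = 0.0170), a 2.15-fold rise. On 1456212_x_at the signals were 1064 and 857.8 in the progesterone arrays and 597.4 and 490.8 in the TGFb1 arrays, for a rise of 0.80 ± 0.15 (adjusted p = 0.0193). On 1416576_at they were 669.9 and 640.1 in the progesterone arrays and 456.5 and 342.9 in the TGFb1 arrays, for a rise of 0.70 ± 0.15 (adjusted p = 0.0358). All 3 probe sets agree in direction, and in each the second TGFb1 array was the lowest of the 4. The ending _x_at marks probe sets whose probes may also bind other transcripts, whereas 1416576_at carries no such mark. Without TGFb1 replicate 2 the 3 values were 0.77, 0.66 and 0.50, and the last then missed the threshold (adjusted p = 0.0506).

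Cish rose as well. It encodes CISH, an inhibitor that STAT5 induces and that binds the IL2 receptor beta chain. Its probe set 1448724_at read 884.4 and 830.2 in the progesterone arrays and 607.0 and 521.2 in the TGFb1 arrays. The groups were clear of each other, and the difference was 0.59 ± 0.12 (interval 0.32 to 0.87, adjusted p = 0.0274), a 1.51-fold rise.

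The sequences upstream of Socs3 and Cish are given because both inhibitors rose together and are textbook targets of STAT proteins. They are the 250 bases before the RefSeq start of each gene in build GRCm38.p6, printed 5′ to 3′ on the gene's strand, with any copy of the STAT palindrome TTCNNNGAA in capitals. Socs3 lies on the minus strand (chr11:117969367-117969616) and Cish on the plus strand (chr9:107296409-107296658).
Socs3: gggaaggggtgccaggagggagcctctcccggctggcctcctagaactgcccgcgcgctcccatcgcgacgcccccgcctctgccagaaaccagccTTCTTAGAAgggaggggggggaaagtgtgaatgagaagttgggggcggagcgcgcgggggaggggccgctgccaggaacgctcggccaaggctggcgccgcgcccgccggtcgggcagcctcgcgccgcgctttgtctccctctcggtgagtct
Cish: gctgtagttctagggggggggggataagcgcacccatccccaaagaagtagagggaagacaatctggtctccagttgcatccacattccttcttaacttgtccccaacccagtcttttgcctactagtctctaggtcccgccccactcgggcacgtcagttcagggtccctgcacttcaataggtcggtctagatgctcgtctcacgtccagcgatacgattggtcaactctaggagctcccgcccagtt

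The Socs3 window holds 1 copy, TTCTTAGAA, whose first base lies 154 bases before the start, and the Cish window holds none. The palindrome reads the same on both strands, so a search of 1 strand finds it on both. RefSeq start windows were matched for 8 of the 10 genes, 10 windows in all, and that of Socs3 was the only one of the 10 with a copy. Among 32851 such RefSeq windows, 7.02% hold at least 1 copy. A match is a run of letters and not a measured binding site, and these arrays measured no binding.

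Socs1 and Socs2 did not pass. SOCS1 blocks JAK kinases directly. Its probe set 1450446_a_at read 172.5 and 215.3 in the progesterone arrays and 133.1 and 164.1 in the TGFb1 arrays. The groups stood apart narrowly, and the difference was 0.35 ± 0.18 (interval -0.06 to 0.76, adjusted p = 0.304).

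Socs2 encodes an inhibitor best known for limiting growth hormone signalling through STAT5. It had 6 probe sets, 5 of them kept, and these did not move together. On 1418507_s_at it read 959.4 and 811.8 in the progesterone arrays and 865.1 and 899.3 in the TGFb1 arrays. The TGFb1 values lay between the progesterone values, and the difference was 0.00 ± 0.11 (interval -0.27 to 0.27, adjusted p = 0.998). On 1449109_at the signals were 800.9 and 542.5 in the progesterone arrays and 869.3 and 959.6 in the TGFb1 arrays, with both progesterone arrays below, a difference of -0.46 ± 0.17 (-0.87 to -0.06, adjusted p = 0.185). The second progesterone array set much of that value, since without it the difference was -0.19. With the deposited signals it was -0.82 and passed (adjusted p = 0.0389).

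The other 3 kept probe sets of Socs2 were dim, with normalised signals of 32.0 to 92.7. On 1438470_at the signals were 65.7 and 46.7 in the progesterone arrays and 92.7 and 91.1 in the TGFb1 arrays, a difference of -0.59 ± 0.20 (adjusted p = 0.149). The opposite pattern was seen on 1442586_at, with 62.2 and 60.1 in the progesterone arrays and 37.1 and 32.0 in the TGFb1 arrays, a difference of 0.61 ± 0.21 (adjusted p = 0.141), which became 0.85 and passed with the arrays scaled to 1 trimmed mean (adjusted p = 0.0496). On 1446085_at they were 67.2 and 51.5 in the progesterone arrays and 88.7 and 44.4 in the TGFb1 arrays, so the groups overlapped widely (-0.09 ± 0.29, adjusted p = 0.899). The remaining probe set, 1441476_at, lay below the filter at 11.0 and 15.5 in the progesterone arrays and 2.60 and 13.9 in the TGFb1 arrays, and was not tested. Socs2 therefore has no single direction in these arrays.

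**Figure D2:**
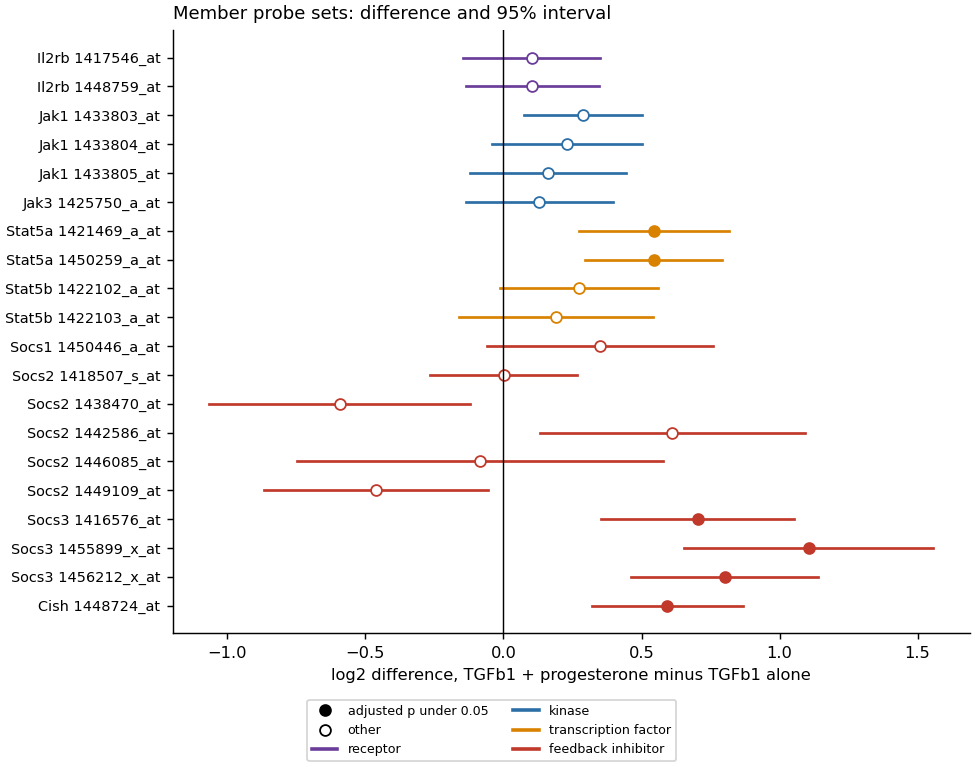
Log2 difference (x axis, progesterone plus TGFb1 minus TGFb1 alone) with its 95% interval for the 20 probe sets kept, coloured by the role of the gene. Filled points passed the adjusted threshold: the 6 probe sets of Stat5a, Socs3 and Cish lie at 0.54 to 1.11, while the 5 of Socs2 spread from -0.59 to 0.61.

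Across the 20 probe sets kept, 17 differences were positive and 3, all of Socs2, were negative, with a median of 0.25, against a median of 0.03 over all 22518. Groups did not overlap on 14 of the 20, with 12 higher and 2 lower in the progesterone arrays. Over all probe sets kept 53.2% had groups without overlap, 29.3% higher and 24% lower, so separation of 4 arrays is common in this comparison. The 2 that were lower were Socs2 probe sets.

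The balance among these genes moved with scaling. With the deposited signals the median of all probe sets was -0.16, and 8 of the 20 differences were positive. There limma took each variance from its intensity trend alone, unlike in the main fit, so the scaling and the variance estimate changed together. In that fit the 6 called probe sets stayed positive but none passed, with Stat5a at 0.16 and 0.18, Cish at 0.23 and Socs3 at 0.37, 0.43 and 0.68, and limma's adjusted p ran from 0.106 to 0.787. Relative to the median of all probe sets those values were 0.32 and 0.34 for Stat5a, 0.39 for Cish and 0.53, 0.59 and 0.84 for Socs3. On the deposited signals Stat5a and Cish overlapped between the groups, Cish with 872.9 and 631.2 in the progesterone arrays and 703.5 and 565.5 in the TGFb1 arrays. Socs3 on 1455899_x_at did not, with 1576 and 1287 in the progesterone arrays and 1168 and 663.2 in the TGFb1 arrays. With the arrays scaled to 1 trimmed mean, 5 of the 6 passed, with Stat5a on 1421469_a_at at an adjusted p = 0.0595, and the median of all was then 0.10. None of the 6 passed without progesterone replicate 1 (adjusted p from 0.0982 to 0.243) or without progesterone replicate 2 (0.0763 to 0.226), although the values kept their sign, at 0.48 to 1.16 and 0.61 to 1.07.

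**Figure D3:**
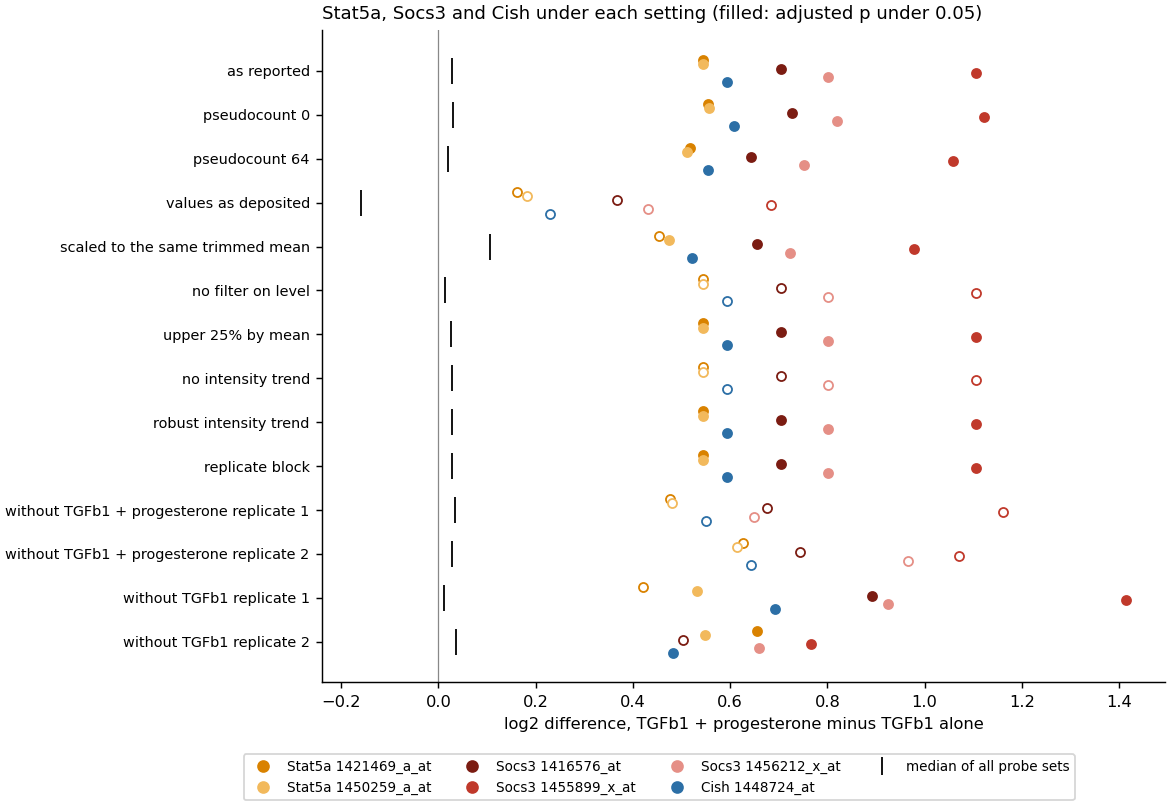
Log2 difference (x axis) of the 6 called probe sets of Stat5a, Socs3 and Cish under each processing setting (rows), filled where the adjusted p is under 0.05, with a black tick at the median of all probe sets. All values are positive, from 0.16 to 1.42, and the settings with no filled point are the deposited values, no filter, no intensity trend and each progesterone array left out.

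Genes that work beside these ones were taken from lists of the wider pathway, each gene by its brightest kept probe set, and 4 of 38 were called against 7.3% of 10501 genes by the same rule, 2.63% as rises and 4.68% as falls. Among 5 tested receptor genes of the common gamma chain family 1 rose, Il7r, and none fell, with a median of -0.08. Il7r encodes the interleukin 7 receptor chain, which IL2 signals are known to lower. It read 4309 and 4728 in the progesterone arrays and 2626 and 3357 in the TGFb1 arrays, a rise of 0.60 ± 0.12 (adjusted p = 0.0245). It did not pass with the deposited signals (0.20), without a filter, without an intensity trend or without either progesterone array.

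Il2ra, the alpha chain that gives the IL2 receptor its high affinity and is itself a STAT5 target, read 869.3 and 805.4 in the progesterone arrays and 1024 and 1162 in the TGFb1 arrays. Both progesterone arrays were lower, and the difference of -0.38 ± 0.11 (interval -0.63 to -0.12) did not pass (adjusted p = 0.0960). With the arrays scaled to 1 trimmed mean it was -0.46 and passed (adjusted p = 0.0414), as it did with the replicate number as a block (adjusted p = 0.0207). The cytokine genes Il2, Il4, Il7, Il9, Il15 and Il21 and the receptor gene Il9r lay below the filter, with Il2 at 14.5 and 4.01 in the progesterone arrays and 8.81 and 11.3 in the TGFb1 arrays.

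No other JAK or STAT gene passed by limma among 6 tested, with a list median of 0.05. An unadjusted limma p under 0.05 was found for 1 of the 6, beside 4799 of the 22518 probe sets kept. That one was Stat3, the IL6 and IL21 effector, at 2304 and 2646 in the progesterone arrays and 1764 and 1945 in the TGFb1 arrays. Its difference was 0.41 ± 0.10 (adjusted p = 0.0534). It passed without TGFb1 replicate 2 (0.49, adjusted p = 0.0269), with a robust trend and with the block, and was -0.03 with the deposited signals.

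Among 14 tested genes of other SOCS proteins, phosphatases and PIAS proteins, which restrain JAK-STAT signals, none passed by limma and the median was -0.08. Of the 14, 3 had an unadjusted limma p under 0.05, beside 4799 of the 22518 probe sets kept. The brightest, Ptprc, the gene of the CD45 phosphatase, read 9598 and 8080 in the progesterone arrays and 9742 and 11032 in the TGFb1 arrays (-0.24 ± 0.09, adjusted p = 0.201). Ptpn6, the gene of the SHP-1 phosphatase, came nearest to the threshold of the list and is named after its values were seen. It read 2145 and 2184 in the progesterone arrays and 2589 and 2970 in the TGFb1 arrays, a difference of -0.36 (adjusted p = 0.0639). It passed with the deposited signals (-0.80, adjusted p = 0.0297), with 1 trimmed mean (-0.50, adjusted p = 0.0159), without TGFb1 replicate 1 (-0.45, adjusted p = 0.0192) and with the block (adjusted p = 0.00618).

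Of 15 genes known as STAT5 targets 2 rose and 2 fell, with a median of 0.01, against 0.02 over all genes tested. An unadjusted limma p under 0.05 was found for 9 of the 15, beside 4799 of the 22518 probe sets kept. The list mixes genes that STAT5 or IL2 signals raise with genes they lower, such as Il7r and Bcl6. These counts and the median ignore that direction. Pim1, a survival kinase gene that STAT5 induces, read 800.5 and 734.3 in the progesterone arrays and 1935 and 2455 in the TGFb1 arrays. That fall of 1.49 ± 0.13 (adjusted p = 0.00156) passed under all 13 alternative settings, and the second Pim1 probe set was at -1.54. Gzmb, the granzyme B gene, was also lower, at 89.4 and 99.6 in the progesterone arrays and 264.4 and 166.6 in the TGFb1 arrays (-1.04 ± 0.22, adjusted p = 0.0349), and it missed the threshold without TGFb1 replicate 1, without either progesterone array, without a filter and without an intensity trend. The cyclin gene Ccnd2 rose by 0.52 ± 0.09 (adjusted p = 0.0195), at 2375 and 2427 in the progesterone arrays and 1796 and 1555 in the TGFb1 arrays, and was at 0.08 with the deposited signals. It also missed the threshold with 1 trimmed mean, without a filter, without an intensity trend and without either progesterone array. Il7r, which belongs to this list too, was the other gene that rose.

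Among the targets that did not pass, Myc, a growth regulator gene, was at 596.8 and 569.0 in the progesterone arrays and 838.4 and 775.6 in the TGFb1 arrays. Its difference of -0.46 ± 0.11 narrowly missed the threshold (adjusted p = 0.0507), and it passed with the deposited signals (-0.81, adjusted p = 0.0410), with 1 trimmed mean (-0.52, adjusted p = 0.0276), without TGFb1 replicate 2 (-0.51, adjusted p = 0.0429), with a robust trend (adjusted p = 0.0437) and with the block (adjusted p = 0.00660). Bcl6, a repressor gene that STAT5 is known to lower, is named after its values were seen. It was at 463.7 and 469.7 in the progesterone arrays and 665.6 and 630.9 in the TGFb1 arrays (-0.46 ± 0.11, adjusted p = 0.0540), and passed with the deposited signals, with 1 trimmed mean, with a robust trend and with the block (adjusted p = 0.00969 to 0.0456). Foxp3, the lineage factor gene of regulatory T cells, was at 742.1 and 849.7 in the progesterone arrays and 886.1 and 1201 in the TGFb1 arrays (-0.37 ± 0.15, adjusted p = 0.217), with the TGFb1 arrays far apart. It passed without TGFb1 replicate 1 (-0.57, adjusted p = 0.0329) and with the block (adjusted p = 0.0208), and was -0.16 without TGFb1 replicate 2 (adjusted p = 0.534). Mcl1, a survival gene and the brightest of the uncalled targets, was at 4516 and 4722 in the progesterone arrays and 3586 and 4184 in the TGFb1 arrays (0.25 ± 0.09, adjusted p = 0.149). It passed without TGFb1 replicate 2 (0.37, adjusted p = 0.0208) and with the block (adjusted p = 0.0231), and was -0.15 with the deposited signals. STAT5 target genes were thus found in both directions, with Pim1 lower where Cish was higher, and whether their responses differ was not tested.

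**Figure D4:**
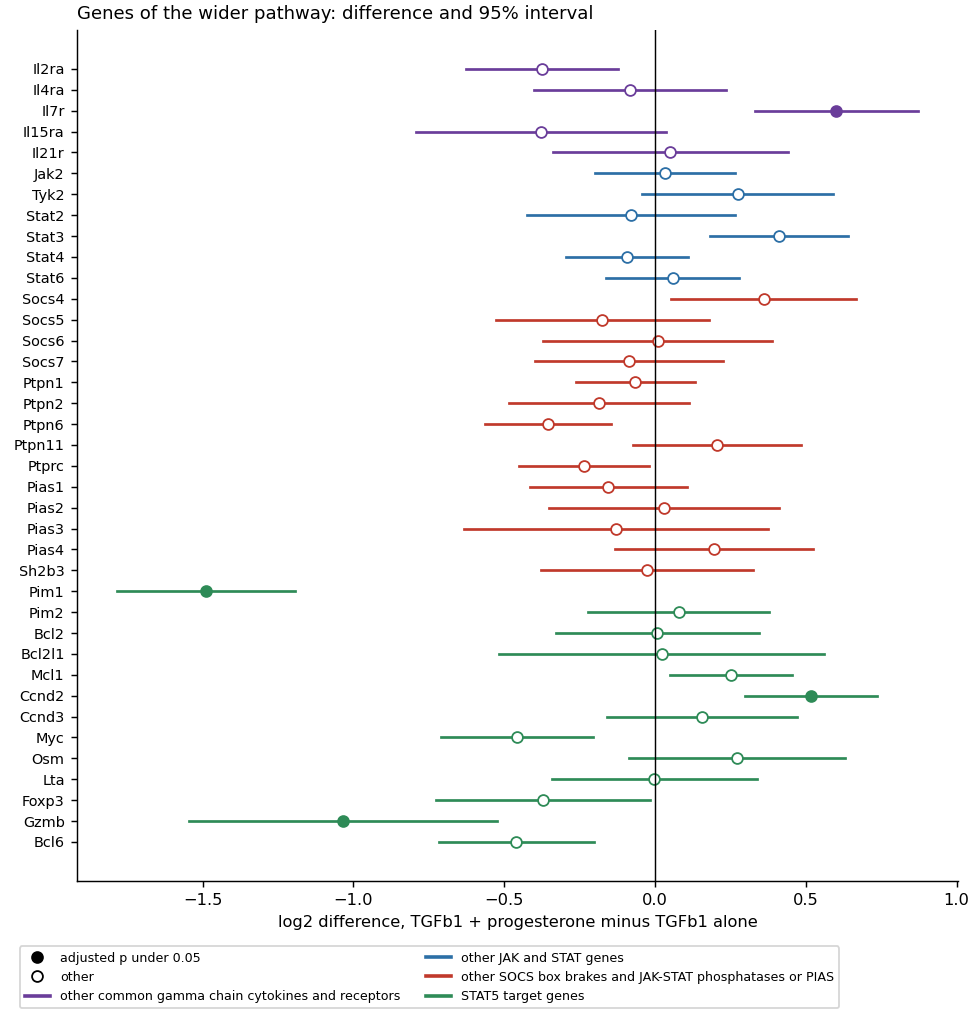
Log2 difference (x axis, progesterone plus TGFb1 minus TGFb1 alone) with its 95% interval for 38 genes of the wider pathway, coloured by list, where Il2ra and Il7r also belong to the STAT5 target list. Filled points passed the adjusted threshold: Il7r and Ccnd2 to the right of 0, and Pim1 and Gzmb to the left.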

How the data were processed

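RNA from 4 samples was hybridised as biotin-labelled cRNA made from 2 ug of total RNA, per the labels' protocols. The authors deposited linear signal intensity per probe set. The submitters' processing notes name MAS5, and the sources used here do not state its scaling. The deposited trimmed means (2% off each end) differed between arrays, so signals were quantile normalised after 64 control probe sets were left out, and taken as log2(signal + 16), which understates changes of dim genes. Probe sets with a mean log2 value above the median of all were kept (22518). Gene names are those of the platform annotation, updated through a RefSeq table. Of 45037 probe sets 34945 had 1 gene, 932 several and 9160 none, and 34741 matched the RefSeq table.

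The test was limma's moderated test (version 3.58.1, R 4.3.3; eBayes with trend) without covariates, groups and replicate numbers from the sample titles, and Benjamini-Hochberg adjustment over all probe sets kept. The scripts were tested on simulated data. With 2 against 2 arrays no exact permutation p can fall below 0.333, so none is given. Precision is limited by the number of arrays, which leaves 2 residual degrees of freedom in the main fit and fewer with the replicate block or with an array left out. No detection call was used. The members, lists and tests were chosen with earlier results of these data known. Genes named were all members, the called genes of each pathway list and its brightest uncalled gene, Il2ra, Il7r, Myc and Foxp3, the 2 brightest genes of each marker list, and Xist and Eif2s3y. Other marker genes are named only where they decide a count. Ptpn6, Bcl6, Cd4, Cd5, Cd28, Itgam and the other mast cell genes were named after their values were seen. Alternatives were pseudocounts of 0 and 64, other scalings, filters and variance models, the replicate number as a block and leaving out each array.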

Additional observations from a re-analysis of the deposited data

How the results depend on the processing

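Of the 6 called probe sets of Stat5a, Socs3 and Cish, all kept their sign in all 13 alternatives. All 6 passed with pseudocounts of 0 and 64, in the upper 25% by level, with a robust trend and with the replicate block. Without a filter 11 of the 20 tested had an unadjusted limma p under 0.05, beside 6195 of all 45037. Without an intensity trend it was 8, beside 4508 of 22518. The number called among the 20 was 1 with the deposited signals (a Socs2 probe set, 1449109_at, at -0.82), 0 without a filter and 0 without an intensity trend. Leaving out 1 array gave 0 to 7. Over the whole table the 1348 calls became 534 without a filter, 829 in the upper 25% by level, 481 without an intensity trend and 324 to 1634 when 1 array was left out. Rises made up 39.5% of the calls, against 17.8% with the deposited signals, 27.0% without an intensity trend, 20.7% without progesterone replicate 1 and 21.3% without progesterone replicate 2. The cause of these shifts was not tested. Without a filter and in the upper 25% the number of tests and the variance fit changed together. With the deposited signals the scaling and the variance fit changed together.

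Deviations of same-numbered arrays from their group means were weakly correlated (r = 0.18 across 22518 probe sets), and the labels state no pairing. With 2 arrays per group, swapping the replicate numbers in either group alone reverses the sign of r, which therefore cannot establish pairing. Both progesterone arrays correlated more with TGFb1 replicate 2 (0.962 and 0.954) than with TGFb1 replicate 1 (0.959 and 0.944). The block fit thus assumes a pairing and leaves fewer residual degrees of freedom than the 2 of the main fit. With the replicate block 3152 probe sets were called in all and 8 among these genes, the 6 plus Jak1 1433803_at (0.29, adjusted p = 0.0325) and Socs2 1449109_at (-0.46, adjusted p = 0.0344).

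No reversed value passed the test. With the deposited signals Il2rb turned to -0.27 and -0.26, Jak1 to -0.16, -0.14 and -0.27, Jak3 to -0.27, Stat5b to -0.070 and -0.22, and Socs2 1418507_s_at to -0.37. With 1 trimmed mean, Socs2 1418507_s_at was at -0.077 and Socs2 1446085_at at 0.11. With 1 array left out, Socs2 1418507_s_at ran from -0.12 to 0.12, Socs2 1446085_at from -0.47 to 0.30, Jak1 1433805_at from -0.030 to 0.36 and Stat5b 1422103_a_at from -0.037 to 0.42. A lone array is assumed to vary like the other group.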

Other observations

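Jak3 is also measured by a probe set that the annotation shares with Insl3, a hormone gene, and that was therefore left out above. That probe set, 1423021_s_at, read 1374 and 1288 in the progesterone arrays and 1059 and 1233 in the TGFb1 arrays (0.22 ± 0.11, adjusted p = 0.293). A second shared probe set, 1427092_at, was at 4.45 and 8.63 in the progesterone arrays and 2.10 and 8.09 in the TGFb1 arrays, below the filter. Ccnd3, a cyclin gene of the STAT5 target list, was not called on its brightest probe set (0.16), whereas another of its probe sets gave 0.72 ± 0.16 (adjusted p = 0.0408), a value singled out after it was seen.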
